A study of Aspergillus niger with 27 samples.

Results

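The 6 genes described here are 4 genes for enzymes of pentose catabolism and 2 for transcription factors that control them in Aspergillus niger, read across a colony grown over 3 substrates. The enzymes were the D-xylose reductase xyrA (NRRL3_1952), the L-arabitol dehydrogenase ladA (NRRL3_2523), the xylitol dehydrogenase xdhA (NRRL3_9204) and the xylulokinase xkiA (NRRL3_4471). The regulators were xlnR (NRRL3_4034) and araR (NRRL3_7564). They were chosen by these IDs, not by their values, and are 6 of 11846 gene models. The table lists IDs only, without names or coordinates, so the names rest on that ID list. Other genes of the pathway, among them those of L-arabinose and L-xylulose reduction, were not analysed here because no source used here pairs their names with these IDs.

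The study grew A. niger mycelium on pie-plates, dishes divided into wedge-shaped compartments of liquid medium under a perforated membrane that lets metabolites and proteins through and holds back hyphae. Each of 3 plates (A, B and C) carried 1 colony, inoculated at the centre, that spread over all 9 compartments. Compartments 1, 2 and 3 held glucose, 4, 5 and 6 sugar beet pulp, and 7, 8 and 9 wheat bran, and RNA of the mycelium over each compartment gave 27 libraries in all. The labels name no strain, colony age or genetic change, and say that the carbon source affected radial growth, so that the colonies were not symmetrical. The groups thus differ by compartment and the medium in it, and p-values rest on the spread between these 3 plates. In each section 1 compartment lay between compartments of its own substrate and the others bordered another substrate on 1 side, but the labels do not say which number is which.

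D-Xylose and L-arabinose are the main sugars of arabinoxylan, a cell wall polymer abundant in wheat bran, and L-arabinose is also a main sugar of the arabinan side chains of sugar beet pectin. Fungi break both pentoses down through alternating reductions and oxidations. XyrA reduces D-xylose to xylitol, LadA oxidises L-arabitol on the L-arabinose branch, and the branches meet at xylitol, which XdhA oxidises to D-xylulose and XkiA then phosphorylates for entry into the pentose phosphate pathway. XlnR is the activator that responds to D-xylose and drives xylanase genes and xyrA, AraR responds to L-arabitol and drives ladA, and both act on xdhA and xkiA. In the presence of glucose the repressor CreA holds many such genes down.

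Libraries held 8006891 to 24501824 counts. Levels are given as CPM, the count as a share of a library total scaled by TMM, a factor that brings the bulk of genes to a common level. The lowest count of a member in any library was 45, for xkiA in compartment 9 of plate C, with a Poisson 95% interval of 32.8 to 60.2 that covers counting error only. The wheat bran compartment 9 libraries stood apart, with a TMM factor of 0.551 ± 0.0954 (SD, n = 3 plates) where the other compartments averaged 0.830 to 1.46, and the 20 most abundant genes took 40.0% ± 4.24 of their counts. Substrates were therefore compared with and without compartment 9. They were compared on sums of the 3 compartments of a substrate per plate, since these belong to the same colony. CPM measures a share of RNA, so less mycelium expressing a gene and less RNA per hypha cannot be told apart.

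**Figure D1:**
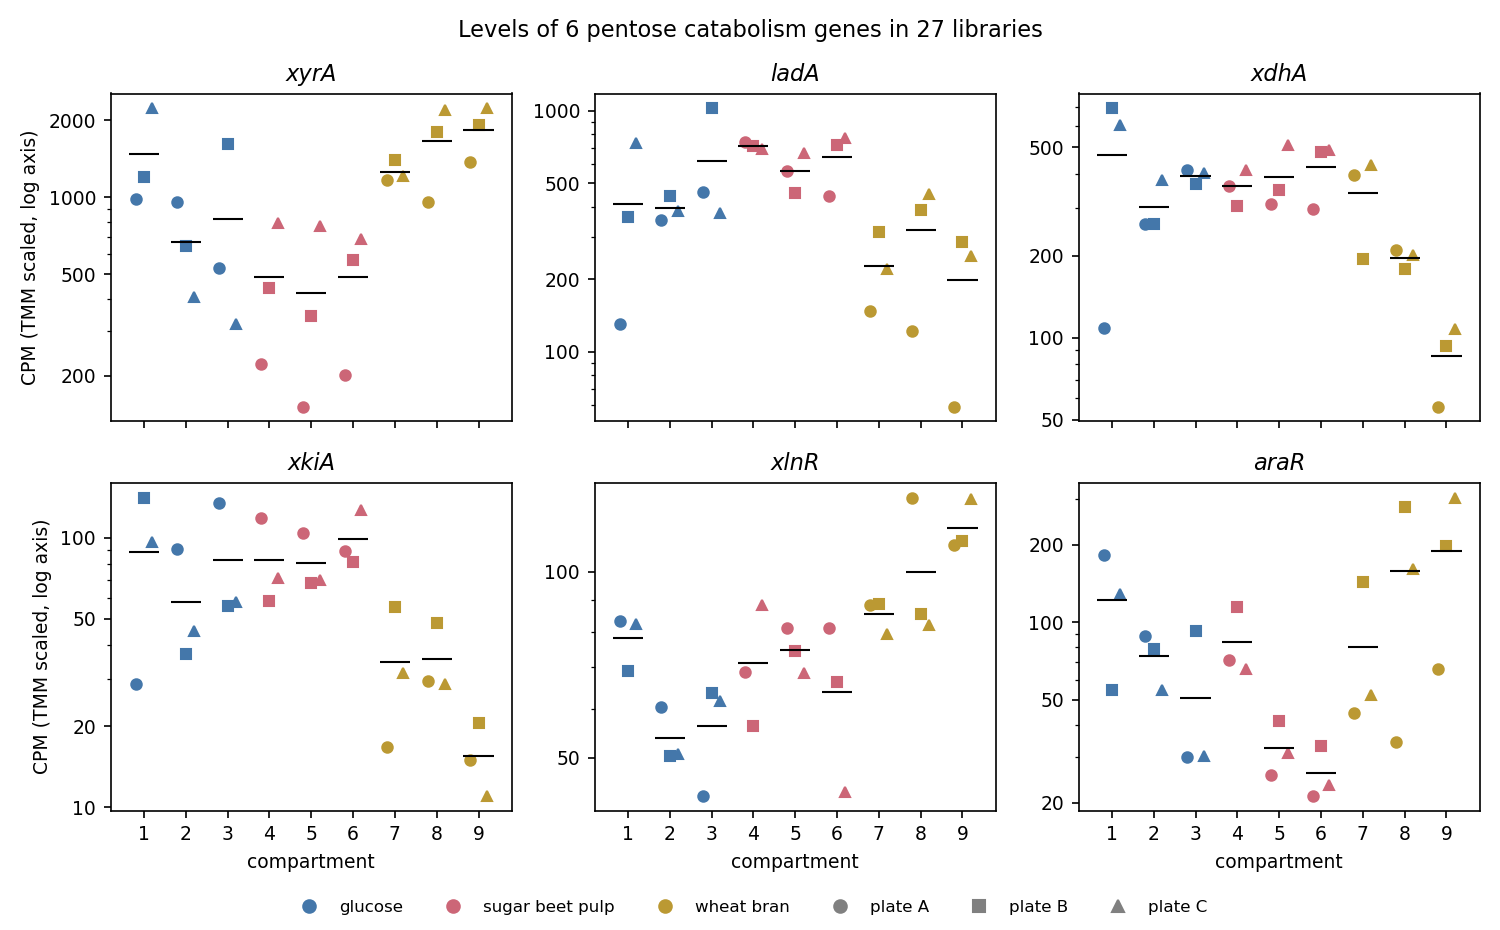
Level of each of the 6 genes (CPM, TMM scaled, log axis) by compartment; colours are substrates, symbols are the 3 plates and black lines are compartment means. On wheat bran (7 to 9) all 9 libraries of xyrA, from 959 to 2221 CPM, lie above all 9 sugar beet pulp libraries, from 152 to 794, while xdhA falls to 85.8 CPM in compartment 9. Scaled by library size alone, the xyrA ranges are 739 to 1600.3 and 229 to 1047 CPM and overlap.

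Between the plant residues the members moved in both directions. On wheat bran the xyrA transcript was 3.37-fold higher than on sugar beet pulp and araR 2.47-fold higher, whereas ladA was 2.78-fold and xkiA 3.00-fold lower. With libraries scaled by size alone these folds were 2.11 and 1.55 for xyrA and araR, and 4.45 and 4.78 for ladA and xkiA, while the median of all genes was -0.68 on the log2 scale, against 0.0014 with TMM. For xdhA and xlnR no difference passed the threshold, an adjusted p under 0.05. The edgeR quasi-likelihood test thus called 4 of the 6 genes, 2 in each direction, where it called 41.7% of 11641 genes, 20.1% higher and 21.6% lower on wheat bran. Against a background that wide the number of calls says little about these genes, and the values below carry the description. Wheat bran against glucose gave 2 calls of 6, ladA and xkiA, both lower on wheat bran, against 32.0% of all genes, 15.7% higher and 16.3% lower. That share is close to the background. Sugar beet pulp against glucose gave 1 of 6, xyrA, lower on sugar beet pulp, against 6.48% of all genes, 2.29% higher and 4.18% lower. The comparisons share libraries, so that their calls are not independent of each other.

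**Figure D2:**
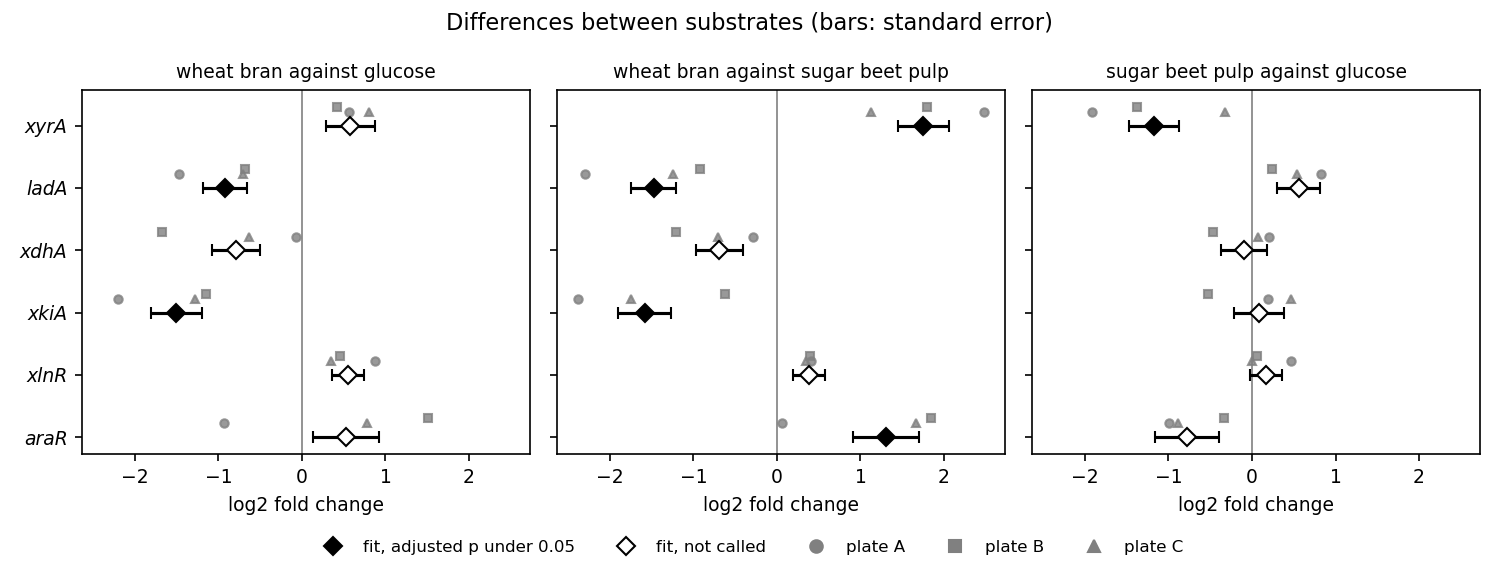
Log2 fold change of each gene in the 3 comparisons of substrates; diamonds are the fit over 3 plates with its standard error (filled where the adjusted p was under 0.05) and grey symbols are the log2 ratios of single plates. Between wheat bran and sugar beet pulp xyrA stands at 1.75 and araR at 1.31, and ladA at -1.48 and xkiA at -1.58.

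The D-xylose reductase gene xyrA had its highest levels on wheat bran and its lowest on sugar beet pulp. Plates A, B and C gave 1167, 1652 and 1730 CPM on wheat bran, 789, 1237 and 991 on glucose, and 209, 476 and 795 on sugar beet pulp. Every plate had its lowest value on sugar beet pulp and its highest on wheat bran. Wheat bran exceeded sugar beet pulp by a log2 fold change of 1.75 (SE 0.30, edgeR adjusted p = 0.0017), and without compartment 9 it was 1.73 (adjusted p = 0.0024). Wheat bran was higher than glucose on 3 of 3 plates, by a log2 fold change of 0.58 (SE 0.29), which did not pass the edgeR test (adjusted p = 0.157). From glucose to sugar beet pulp the log2 fold change was -1.17 (SE 0.30, edgeR adjusted p = 0.0483). This last call was lost on leaving out any plate, with adjusted p of 0.166, 0.197 and 0.0596 without A, B and C, as well as without compartment 9 (0.0530) and without the plate block (0.169). With library size scaling it was lost as well (-0.78, edgeR adjusted p = 0.0727).

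On glucose the spread of xyrA was wide. The 9 glucose libraries ran from 320 to 2222 CPM with a median of 957, and compartment 3 alone gave 529, 1610 and 320 on plates A, B and C. Compartment 1, with 985, 1195 and 2222 CPM, overlapped the wheat bran compartments, and its mean of 1467 ± 662 ranked between compartments 8 and 7 (SD, n = 3 plates). The log2 difference of compartment 7 from 1 was -0.13 (SE 0.53, edgeR adjusted p = 0.954) in a pair in which 5.29% of genes were called, and without plate C it turned to 0.22. On sugar beet pulp the plates separated instead. Plate A ran from 152 to 223 CPM, plate B from 342 to 568 and plate C from 688 to 794 over the 3 compartments, with no overlap. Among the 18 combinations of gene and substrate this was the only such separation. The share of all genes whose plates separate in this way was not determined, so the separation is no trait of xyrA.

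The L-arabitol dehydrogenase gene ladA took the opposite order, with its highest values on sugar beet pulp. Sums on sugar beet pulp were 640, 649 and 755 CPM on plates A, B and C. The glucose sums were 361, 551 and 518 CPM and the wheat bran sums 130, 343 and 319. Each plate kept that order, and the 3 groups of sums did not overlap. Single libraries did overlap, since wheat bran ran from 59.1 to 449 CPM with a median of 249.8 and sugar beet pulp from 442 to 770 with a median of 691. Wheat bran lay below sugar beet pulp by a log2 fold change of -1.48 (SE 0.27, edgeR adjusted p = 0.0022) and below glucose by -0.92 (SE 0.26, adjusted p = 0.0255). Both held without compartment 9, at -1.39 (edgeR adjusted p = 0.0032) and -0.83 (0.0396). The call against glucose was lost without plate C (log2 fold change -1.02, edgeR adjusted p = 0.131) and without the plate block (-0.85, 0.0690). It was also lost with compartments 1, 4 and 7 alone (-0.70, edgeR adjusted p = 0.750) and with 2, 5 and 8 alone (-0.41, 0.485). Sugar beet pulp was above glucose on 3 of 3 plates, by 0.56 (SE 0.26), which did not pass the edgeR test (adjusted p = 0.251). It passed when libraries were scaled by size alone (0.96, edgeR adjusted p = 0.0421), but the median of all genes then moved by 0.43. Relative to that median the change of ladA was 0.52 with TMM and 0.53 with library size scaling.

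Plate A stood low for ladA in compartment 1, at 131 CPM against 364 and 734 on plates B and C, and in wheat bran compartment 9, at 59.1 CPM against 284 and 249.8. In sugar beet pulp compartment 4 the plates lay close together, at 739, 714 and 691 CPM, and this compartment had the highest mean, 715 ± 24.4, with the lowest in compartment 9, 198 ± 121 (SD, n = 3 plates). From 4 to 9 the log2 fold change was -2.10 (SE 0.48, edgeR adjusted p = 0.0011), in a pair in which 46.4% of genes were called.

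The xylulokinase gene xkiA, which like xdhA serves a step common to both pentoses, was low on wheat bran. Its sums were 21.7, 48.3 and 28.6 CPM on plates A, B and C on wheat bran, 99.98, 107 and 69.6 on glucose, and 114, 74.5 and 96.4 on sugar beet pulp. All wheat bran libraries, from 11.02 to 55.1 CPM, lay below all sugar beet pulp libraries, from 58.1 to 126. Wheat bran differed by -1.58 on the log2 scale (SE 0.31, edgeR adjusted p = 0.0033) against sugar beet pulp and -1.50 (SE 0.31, adjusted p = 0.0060) against glucose. Without compartment 9 these were -1.45 (edgeR adjusted p = 0.0065) and -1.37 (0.0116), and without plate C the call against glucose was lost (-1.59, 0.0605). That call was also lost with compartments 1, 4 and 7 alone (-1.34, edgeR adjusted p = 0.386) and with 2, 5 and 8 alone (-0.60, 0.258). Between sugar beet pulp and glucose the log2 difference was 0.08 (SE 0.30, edgeR adjusted p = 0.906), with 2 plates higher and 1 lower.

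Glucose libraries of xkiA spread widely, from 28.7 to 141 CPM with a median of 57.5. In compartment 1 plate A gave 28.7 CPM and plates B and C 141 and 96.5, while in compartment 3 plate A gave 135 and plates B and C 55.7 and 57.5. The compartments thus ran in opposite orders on plate A and on the other plates, and their ranges overlapped.

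The xylitol dehydrogenase gene xdhA was not called between substrates in the sums, and differed among the wheat bran compartments. Its wheat bran sums of 289.7, 177 and 311 CPM on plates A, B and C lay below the sugar beet pulp sums of 352, 409 and 509 without overlap, and overlapped the glucose sums of 305, 565 and 484. On the log2 scale wheat bran differed by -0.69 (SE 0.28, edgeR adjusted p = 0.0729) against sugar beet pulp and -0.79 (SE 0.28, adjusted p = 0.0591) against glucose, lower on 3 of 3 plates in both. Under library size scaling both passed (-1.38, edgeR adjusted p = 0.0016, and -1.08, 0.0104), and DESeq2 called the latter (-0.76, 0.0355). With library size scaling the median of all genes moved by -0.68 against sugar beet pulp and -0.29 against glucose. Without plate A both passed as well (-0.94, edgeR adjusted p = 0.0368, and -1.16, 0.0203), as they did over all 27 libraries (-1.11, 3.6e-04, and -1.07, 8.1e-04), a fit that treats libraries of a colony as separate samples. Without plate B or C neither passed. Without compartment 9 the difference from sugar beet pulp was -0.52 (edgeR adjusted p = 0.186) and that from glucose -0.62 (0.152).

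Over the wheat bran section xdhA fell from compartment 7 to 9. It stood at 396, 195 and 432 CPM on plates A, B and C in compartment 7, at 209, 178 and 200.4 in 8, and at 56.0, 93.4 and 108 in 9. On each plate the order was 7, 8, 9, and the values in 9 lay below every value in the other wheat bran compartments. From 7 to 9 the log2 fold change was -2.03 (SE 0.42, edgeR adjusted p = 7.9e-04) and from 8 to 9 it was -1.25 (SE 0.41, adjusted p = 0.0311). Between 7 and 8 it was -0.78 (SE 0.41, edgeR adjusted p = 0.809). Of all genes, 39.4% were called between 7 and 9, 23.8% between 8 and 9, and 0% between 7 and 8. The test of any difference among the 3 compartments gave an edgeR adjusted p of 0.0027, and xdhA was the 1 gene of the 6 that it called, against 32.4% of all genes. Without plate C that adjusted p was 0.161 and that from 7 to 9 was 0.0650, at a similar log2 fold change of -1.98. The call from 8 to 9 was lost on leaving out any plate, with adjusted p of 0.105, 0.0514 and 0.220 without A, B and C, and without the plate block (0.0554). Compartment 9 is also where the TMM factors were lowest. With library size scaling alone the log2 fold change from 7 to 9 was -2.77 (edgeR adjusted p = 2.7e-04) while the median gene moved by -0.84, so the fall was called under both scalings.

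The gene xkiA also had its lowest mean of this section in compartment 9, without passing the test. Its compartment 9 values of 14.9, 20.5 and 11.02 CPM lay below those of compartment 8, at 29.5, 48.4 and 28.6. Compartment 7, at 16.7, 55.1 and 31.5 CPM on plates A, B and C, overlapped both. From 8 to 9 the log2 fold change was -1.20 (SE 0.52, edgeR adjusted p = 0.0952) and from 7 to 9 -1.16 (SE 0.52, adjusted p = 0.0775). Both passed without plate A (edgeR adjusted p = 0.0499 and 0.0108) and with library size scaling alone (0.0457 and 0.0174). With the latter the median of all genes moved by -0.61 from 8 to 9 and -0.84 from 7 to 9.

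The regulator gene xlnR varied least. Its sums were 111, 92.7 and 87.1 CPM on plates A, B and C on wheat bran, 83.5, 70.5 and 68.5 on sugar beet pulp, and 60.3, 67.8 and 68.6 on glucose. Wheat bran was above the other substrates on 3 of 3 plates and its sums did not overlap theirs. The difference was 0.55 on the log2 scale (SE 0.19, edgeR adjusted p = 0.0526) over glucose and 0.39 (SE 0.19, adjusted p = 0.134) over sugar beet pulp, so neither passed. The former passed without the plate block (0.57, edgeR adjusted p = 0.0436) and with DESeq2 (0.58, 0.0423). It did not pass without plate A (0.40, edgeR adjusted p = 0.137), B (0.61, 0.126) or C (0.67, 0.231), or without compartment 9 (0.53, 0.0863). With library size scaling it was 0.26 (edgeR adjusted p = 0.315), where the median of all genes moved by -0.29. The direction of xlnR against sugar beet pulp depended on the scaling. With library size alone it was -0.30 (edgeR adjusted p = 0.216). Relative to the median of all genes the change was 0.38 under both scalings.

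Over compartments xlnR ranged from 53.8 ± 5.75 CPM in 2 to 118 ± 11.3 in 9 (SD, n = 3 plates). The 9 against 2 difference was 1.14 on the log2 scale (SE 0.26, edgeR adjusted p = 0.0012), in a pair in which 43.8% of genes were called. With library size scaling it was 0.40 (adjusted p = 0.283). The compartment means of xlnR spanned 1.13 log2 units, at least as wide as in 27.7% of genes, while the median gene spanned 1.56. The other 5 members spanned 2.15 to 2.69, at least as wide as in 71.8% to 84.1% of genes.

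On glucose xlnR was lower in compartment 2 than in 1 on every plate. Values were 83.1, 69.1 and 82.3 CPM on plates A, B and C in compartment 1 and 60.5, 50.4 and 50.7 in 2. The groups did not overlap, but the log2 fold change of -0.54 (SE 0.25) was not called (edgeR adjusted p = 0.647), in a pair in which 0.0546% of genes passed. Compartment 3, at 43.4, 63.7 and 61.8 CPM, also lay below 1 on every plate without overlap (-0.46, SE 0.25, edgeR adjusted p = 0.625). In that pair 0.0273% of genes passed. With library size scaling plate C ran the other way there, at 77.8 CPM in 3 and 74.9 in 1.

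The regulator gene araR was high on wheat bran on 2 plates. Its sums were 45.9, 205 and 123 CPM on plates A, B and C on wheat bran, 44.2, 57.3 and 38.9 on sugar beet pulp, and 87.6, 72.1 and 72.0 on glucose. Plate A did not share the rise, since wheat bran there was close to sugar beet pulp and below glucose. Over sugar beet pulp the log2 fold change was 1.31 (SE 0.39, edgeR adjusted p = 0.0237), with single plates at 0.06, 1.84 and 1.67. Without compartment 9 it was 1.21 (edgeR adjusted p = 0.0388). The call was lost without plate B (0.95, edgeR adjusted p = 0.0934), without plate C (1.14, 0.162) and with library size scaling (0.64, 0.213). Over glucose the log2 fold change was 0.53 (SE 0.39, edgeR adjusted p = 0.333). It was 1.14 without plate A, which passed (adjusted p = 0.0128), and -2.3e-04 without plate B. Sugar beet pulp was below glucose on 3 of 3 plates, at -0.78 (SE 0.38), which did not pass (edgeR adjusted p = 0.272).

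Within the sugar beet pulp section araR was higher in compartment 4 than in the others. It stood at 71.4, 115 and 65.8 CPM on plates A, B and C in 4, at 25.7, 41.4 and 31.1 in 5, and at 21.3, 33.2 and 23.5 in 6. Every value in 4 lay above every value in 5 and 6. Compartment 5 differed from 4 by a log2 fold change of -1.35 (SE 0.56), in a pair with 0.127% of genes called, and compartment 6 differed by -1.68 (SE 0.56), with 1.41% called. Neither passed (edgeR adjusted p = 0.782 and 0.172), in a section in which 0.874% of genes differed among compartments. A fit of the sugar beet pulp libraries alone, with its own estimate of the spread, did call araR (edgeR adjusted p = 2.5e-04), but that fit called 1139 genes among these compartments where the fit of all libraries called 96.

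On glucose the araR values were 182, 54.7 and 128 CPM in compartment 1 and 30.1, 92.8 and 30.2 in compartment 3 on plates A, B and C. On plate B compartment 3 was the higher, on the other plates compartment 1. The log2 fold change from 1 to 3 was -1.58 (SE 0.57, edgeR adjusted p = 0.483) in a pair in which 0.0273% of genes were called, and without plate B it was -2.40 and passed (0.0264). On wheat bran the step from 7 to 9 was 1.34 (SE 0.56, edgeR adjusted p = 0.0632), higher on 3 of 3 plates with TMM. It passed without plate A (1.52, 0.0386) and without plate B (1.83, 0.0322), but not without plate C (0.56, 0.667). With library size scaling plates A and B were lower in 9, at 35.4 and 128 CPM against 38.6 and 146 in 7. Plate C rose from 49.7 to 140 CPM.

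Over all 9 compartments each of the 6 genes differed, with edgeR adjusted p from 0.0016 for araR to 0.0071 for xlnR. Of all genes 61.8% did. With library size scaling 5 of the 6 were called and xlnR was not (edgeR adjusted p = 0.0566). Without plate C only xyrA and ladA remained called, and 2 of 6 was the lowest count with a plate left out. Among the glucose compartments none of the 6 was called by the edgeR F-test, with 1, araR, at an unadjusted p under 0.05 and 0 called by DESeq2, where 0.118% of genes were called. Among the sugar beet pulp compartments edgeR and DESeq2 again called 0, with araR at an unadjusted p under 0.05.

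The compartments were put in order of their TMM-scaled means. Neighbours in such an order are close by construction, and of the 8 neighbouring pairs of each gene edgeR called 1 in all, the step from compartment 8 to 9 of xdhA. For xyrA the order from high to low was 9, 8, 1, 7, 3, 2, 4, 6, 5, and for araR it was 9, 8, 1, 4, 7, 2, 3, 5, 6. For xlnR it was 9, 8, 7, 1, 5, 4, 6, 3, 2. For ladA the order was 4, 6, 3, 5, 1, 2, 8, 7, 9, for xkiA 6, 1, 3, 4, 5, 2, 8, 7, 9 and for xdhA 1, 6, 3, 5, 4, 7, 2, 8, 9. Compartment 1 was the highest glucose compartment for every gene but ladA. Compartment 9 was the highest for xyrA, xlnR and araR, and the lowest for ladA, xdhA and xkiA. With library size scaling it was again the lowest for the latter 3 but the highest for none, with compartment 1 highest for xyrA, 5 for xlnR and 8 for araR.

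The ends of these orders lay far apart. The highest compartment mean was 4.35-fold the lowest for xyrA, 3.62-fold for ladA, 5.45-fold for xdhA, 6.40-fold for xkiA, 2.19-fold for xlnR and 7.26-fold for araR. For xyrA the log2 fold change of 9 over 5 was 2.26 (SE 0.55, edgeR adjusted p = 0.0015), but with library size scaling it was 0.88 and not called (0.0957). For araR 9 over 6 was 2.84 (SE 0.59, edgeR adjusted p = 3.6e-04) and remained called with library size scaling (1.36, 0.0191). For xkiA 9 against 6 was -2.72 (SE 0.54, edgeR adjusted p = 2.2e-04), and for xdhA 9 against 1 was -2.41 (SE 0.43, adjusted p = 1.7e-04). In these pairs 54.4% (9 and 5), 54.5% (9 and 6) and 40.7% (9 and 1) of all genes were called.

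Pairs at the ends of the numbered sections, 3 and 4, 6 and 7, and 9 and 1, gave 0 to 2 calls. Between glucose 3 and sugar beet pulp 4 edgeR called none of the 6, with 0 at an unadjusted p under 0.05, against 0.0728% of genes. From sugar beet pulp 6 to wheat bran 7 it called ladA (-1.52, SE 0.46, adjusted p = 0.0300) and xkiA (-1.56, SE 0.51, adjusted p = 0.0395), both lower in 7, against 18.0% of genes. The call of ladA was lost on leaving out any plate (adjusted p = 0.0711, 0.0692 and 0.184 without A, B and C) and without the plate block (0.0656), and that of xkiA without plate A (0.0617) or C (0.319). Between wheat bran 9 and glucose 1 it called xdhA and xkiA, both lower in 9, against 40.7% of genes, so that 2 of 6 is no more than the background. For xkiA that log2 fold change was -2.55 (SE 0.54, edgeR adjusted p = 8.0e-04), lost without plate C (-2.18, 0.0726). Over all 36 pairs of compartments and 6 genes, 50 of 216 combinations were called (23.1%), 7 to 10 per gene, against 17.5% of such combinations over all genes.

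Ratios of genes within a library do not depend on how libraries are scaled, and they set the residues apart. Only their differences between compartments can be read, since counts also depend on transcript length. The log2 ratio of ladA to xyrA counts averaged 0.66 ± 0.85 on sugar beet pulp, against -0.99 ± 0.52 on glucose, and -2.83 ± 0.59 on wheat bran (SD of 3 plate means). All 9 sugar beet pulp libraries, from -0.21 to 1.89, lay above all 9 wheat bran libraries, from -4.54 to -2.14. Glucose libraries ran from -2.92 to 0.24 and overlapped both.

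Across the glucose section the ladA to xyrA ratio was lowest in compartment 1, at -2.08 ± 0.73, and stood at -0.69 ± 0.69 in 2 and -0.21 ± 0.45 in 3 (SD, n = 3 plates). The 3 values in compartment 1, from -2.92 to -1.60, lay below all 6 values of the other glucose compartments. On plate B compartment 2 lay above compartment 3. No test was made of these ratios.

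The ratio of xkiA to xyrA also separated the residues, with sugar beet pulp from -3.49 to -0.54 and wheat bran from -7.65 to -4.66. For xdhA to xyrA, sugar beet pulp ran from -0.95 to 1.02 and wheat bran from -4.62 to -1.48. The plates agreed most closely in compartment 9, at -4.44 ± 0.15 (SD, n = 3 plates), after -1.96 ± 0.76 in 7 and -3.00 ± 0.70 in 8. The ratio of xlnR to araR overlapped between all substrates. It was 1.22 ± 0.41 and 1.28 ± 0.57 in compartments 5 and 6, against -0.22 ± 0.74 in compartment 4, and the values in 5 and 6, from 0.85 to 1.93, lay above those in 4, from -1.03 to 0.42.

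**Figure D3:**
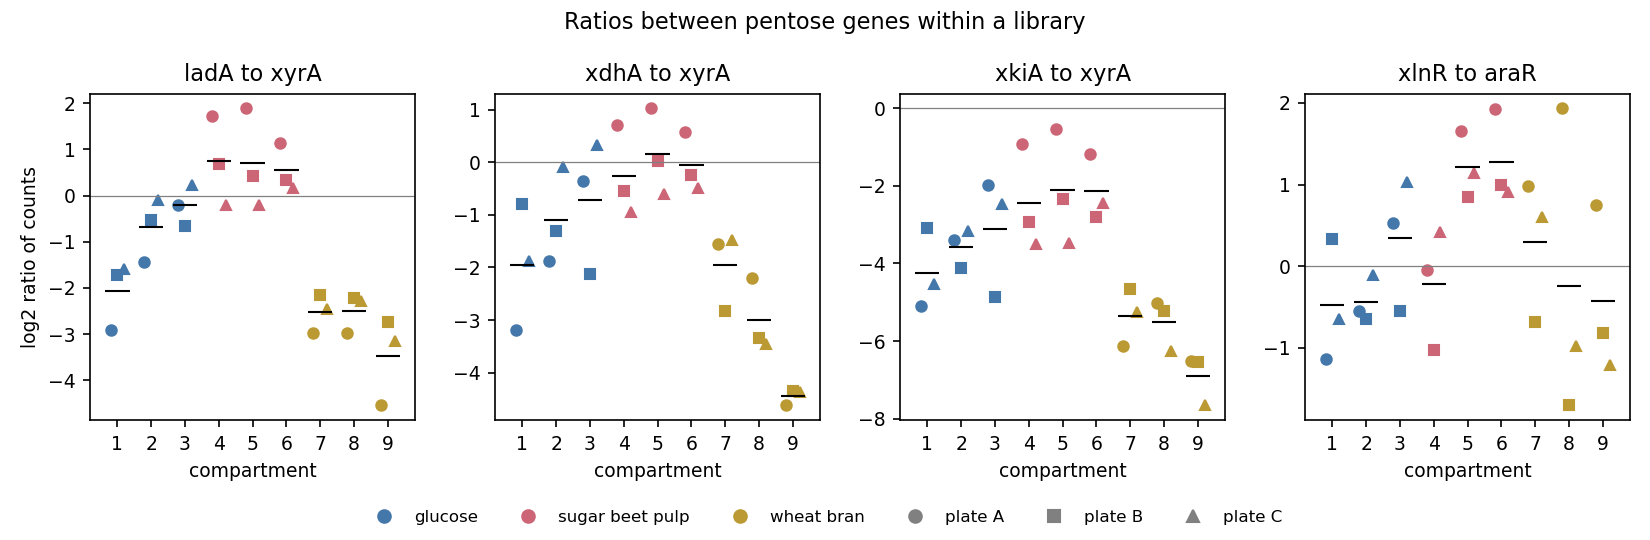
Log2 ratio of the counts of 2 genes in the same library, by compartment; colours are substrates, symbols are plates and black lines are compartment means. For ladA to xyrA all sugar beet pulp libraries (4 to 6) lie at or above -0.21 and all wheat bran libraries (7 to 9) at or below -2.14.

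Substrate took the largest share of the variance of log2 CPM for 5 of the 6 genes, from 35.0% for xdhA to 57.7% for xkiA, against a mean of 32.7% over all genes. For araR it took 28.2%, and compartments within a substrate took 29.4%. For xdhA compartments within a substrate took 31.4%, and for xyrA and ladA 9.74% and 8.59%, against a mean of 24.9% over all genes. The plate took 20.2% for ladA and 0.611% for xkiA. With library size scaling the share of substrate was 30.2% for xyrA, 62.4% for ladA, 35.2% for xlnR and 8.07% for araR.

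**Figure D4:**
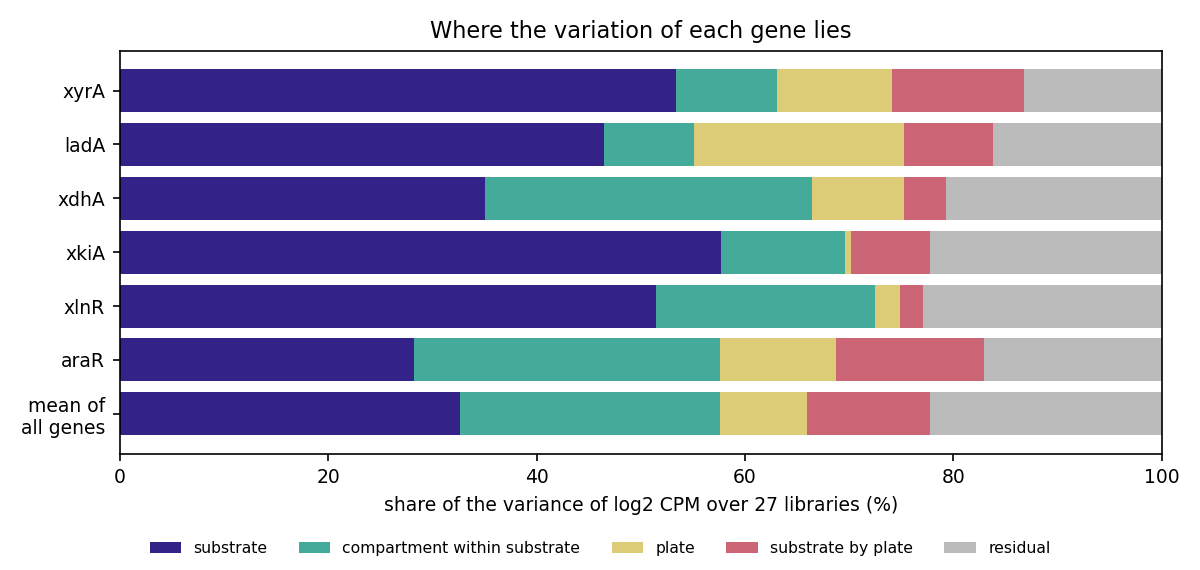
Share of the variance of log2 CPM over 27 libraries taken by substrate, compartment within substrate, plate, the substrate by plate term and the residual, for each gene and as the mean over 10990 genes. Substrate takes 57.7% for xkiA and 28.2% for araR.

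The members did not vary as one group. Over the 27 libraries, which share 3 colonies, log2 CPM of ladA, xdhA and xkiA ran together, with Pearson r of 0.66 (ladA and xdhA), 0.70 (ladA and xkiA) and 0.72 (xdhA and xkiA). Many other genes ran as closely with xdhA and xkiA, and fewer did so with ladA. Of 4543 genes ranked by their r with xdhA, xkiA stood at rank 693 and ladA at 933, and with xkiA, xdhA stood at 383 and ladA at 475. With ladA, xkiA stood at 51 and xdhA at 119. The level of xyrA ran against xkiA (-0.52) and with araR (0.68). After removal of the substrate means r was 0.46, 0.41 and 0.52 for the former 3 pairs, -0.01 for xyrA and xkiA and 0.50 for xyrA and araR. The pair xyrA and ladA had r of -0.30 over libraries, -0.91 over the 9 compartment means and 0.57 within compartments, so that plates high in one tended to be high in the other while compartments ran the opposite way. For xlnR and xkiA, r was -0.63 with TMM and 0.38 with library size scaling, and for xyrA and xlnR it was 0.42 with TMM and -0.18 with library size scaling. In the same order, r of xlnR was -0.57 and 0.22 with ladA, -0.59 and 0.36 with xdhA, and 0.39 and -0.22 with araR. The sign of r between xlnR and every other member thus rests on the scaling. These values are descriptions, without a test.

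Outside the 6 genes, the gene whose log2 CPM ran most like each member was sought among the 4538 genes whose mean log2 CPM reached 4. For araR it was NRRL3_9088 (Pearson r = 0.94 over 27 libraries), at 81.2 ± 6.33 CPM on glucose, 52.1 ± 1.43 on beet pulp and 109 ± 33.5 on wheat bran (SD, n = 3 plates). For xyrA it was NRRL3_1648 (r = 0.92), with 2607 ± 347, 865 ± 594 and 12422 ± 2877 CPM in the same order. Like xyrA, it was lowest on sugar beet pulp and highest on wheat bran, an order that its choice by r with xyrA favours. For ladA it was NRRL3_8663 (r = 0.91), with 1560 ± 638, 2060 ± 310.0 and 324 ± 156 CPM. For xdhA it was NRRL3_6416 (r = 0.93), one of 43 genes with r over 0.9, against 0 to 3 such genes for the other members. For xkiA it was NRRL3_6477 (r = 0.89) and for xlnR NRRL3_988 (r = 0.84), whose r with library size scaling was 0.54. The sources used here give no names for these IDs.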

How the data were processed

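The deposited table holds the authors' raw counts of 11846 gene models in 27 libraries, not normalized. A SMARTer Ultra Low RNA kit gave the cDNA, which was fragmented and sequenced on an Ion Proton, per the labels' protocols. Per the submitters' processing notes HTSeq and DESeq2 were used. The tool versions, aligner, build, annotation and strand setting were not given in the sources used here. How reads of overlapping genes or of close copies were split is therefore uncertain.

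All 27 columns matched a library. Counts were analysed with edgeR 4.0.16 in R 4.3.3 (quasi-likelihood F-test, TMM, filterByExpr, two-sided), with p-values adjusted by the Benjamini-Hochberg method over all genes tested and a threshold of 0.05. Substrates were compared on 9 sums per plate and substrate (11641 genes, 4 residual degrees of freedom), compartments on 27 libraries (10990 genes, 16). All 6 members passed the filters. The plate was a block, because per the labels 1 colony spanned the 9 compartments of each plate. Deviations from group means correlated with a mean r of 0.126 over 108 same-plate pairs of libraries. No pair of replicates agreed within sampling noise (lowest chi-square per degree of freedom 31.3). The SE is the log2 fold change over the square root of F, and a prior count of 2 went into log2 CPM. The 6 members are always named, with the most similar gene for each. Pairs given with values are the ends of each member's order, pairs within a section and pairs at the ends of the numbered sections, picked after their values were seen. Fits were tested on simulated data. DESeq2 1.42.0 was an alternative. Members, lists and tests were chosen with earlier results of these data known. Of the 11846 IDs, 0 were found in the gene name table of assembly ASM285v2.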

Additional observations from a re-analysis of the deposited data

How the results depend on the processing

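The direction and call of xyrA, ladA and xkiA between wheat bran and sugar beet pulp held under library size scaling, DESeq2, no filter, no plate block, sums without compartment 9, all 27 libraries, compartments 3, 6 and 9 alone, and without any 1 plate. With compartments 1, 4 and 7 alone these calls were lost, and with 2, 5 and 8 alone that of ladA (adjusted p = 0.0839). The numbers of members called changed as follows. Wheat bran against glucose gave 2 as reported, 4 with DESeq2 or all 27 libraries (which treats libraries of the same colony as replicates), 0, 1 and 5 with compartments 1, 4, 7, or 2, 5, 8, or 3, 6, 9 alone, and 0 to 4 with a plate left out. The 1 call with 2, 5 and 8 alone was xlnR (0.87, edgeR adjusted p = 0.0319), while ladA (-0.41, 0.485) and xkiA (-0.60, 0.258) were lost there. Wheat bran against sugar beet pulp gave 4, 0 with compartments 1, 4 and 7 alone, 5 with 3, 6 and 9 alone, 6 with all 27 libraries and 3 to 5 with a plate left out. Sugar beet pulp against glucose gave 1, then 0 without the replicate block, without compartment 9, with each set of compartments alone and with a plate left out (0 to 0), and 2 with all 27 libraries. With library size scaling it stayed at 1, but the gene called was ladA in place of xyrA. Among sugar beet pulp compartments 0 became 1 with that section alone. Among wheat bran compartments 1 became 2 with library size scaling and with that section alone, and 0 to 2 with a plate left out. Over all 9 compartments 6 became 5 with library size scaling and 2 to 5 with a plate left out.

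Among the comparisons of substrates, the directions that turned were of differences that were not called, except that of araR between the residues. With library size scaling they were xlnR between the residues (-0.30) and xdhA from glucose to sugar beet pulp (0.30). The latter was also positive without plate B (0.13), with compartments 2, 5 and 8 (0.35) or 3, 6 and 9 (0.044) alone and with all 27 libraries (0.037), and ran from -0.22 to 0.13 with a plate left out. With compartments 1, 4 and 7 alone, xyrA over glucose on wheat bran was -0.10, araR over glucose on wheat bran -0.80, araR between the residues -0.10 and xlnR from glucose to sugar beet pulp -0.18. With a plate left out, araR over glucose on wheat bran ran from -2.3e-04 to 1.14, xkiA from glucose to sugar beet pulp from -0.13 to 0.31, and xyrA in compartment 7 against 1 from -0.38 to 0.22. The causes were not tested.

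Of the 50 called pairs of compartments, 33 were also called with library size scaling, where 3 called pairs of xlnR turned direction. All losses lay in 3 genes. For xyrA 2 of 8 calls were kept, for araR 3 of 8 and for xlnR 1 of 7, while ladA, xdhA and xkiA kept all of theirs. Without the plate block 38 of the 50 pairs were called, and without plate A, B or C 31, 33 and 21. Counts over all genes moved by more than 1.5 times as well, from 3720 to between 173 and 5585 for wheat bran against glucose, from 4859 to between 375 and 6728 against sugar beet pulp, from 754 to between 1 and 2587 for sugar beet pulp against glucose, and from 13, 96, 3558 and 6796 to between 0 and 274, 1 and 1139, 383 and 4029, and 2127 and 7893 among glucose, sugar beet pulp, wheat bran and all compartments.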

Other observations

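With TMM the glucose compartment 1 library of plate A lay at the edge of the glucose libraries for 5 of the 6 genes. The share of all genes at the edge in this library was not determined, so the count is no trait of the members. This library had the lowest glucose values of ladA (131 CPM), xdhA (109 CPM) and xkiA (28.7 CPM), and the highest of xlnR (83.1 CPM) and araR (182 CPM). With library size scaling its xlnR value, 64.1 CPM, was not the highest, since compartment 1 of plate B reached 94.7. The highest glucose values were 1022 CPM for ladA, in compartment 3 of plate B, and 693 and 141 CPM for xdhA and xkiA, in compartment 1 of plate B. On wheat bran plate A also had the lowest sums of xyrA (1167 CPM), ladA (130 CPM), xkiA (21.7 CPM) and araR (45.9 CPM) and the highest of xlnR (111 CPM). With 3 plates these orders are descriptions and were not tested.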
